A study of Mus musculus with 12 samples.

Results

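Podocytes are the epithelial cells that cover the capillaries of the glomerulus. Their interlocking foot processes leave narrow slits, each spanned by a slit diaphragm, and together with the glomerular basement membrane these slits form the filter of the kidney. Loss of a slit diaphragm or foot process protein is a known cause of proteinuria and nephrotic syndrome. A set of 8 genes of this cell was followed here: Nphs1 (nephrin) and Kirrel (Neph1), the immunoglobulin-family proteins of the slit diaphragm; Cd2ap, the adaptor that ties the diaphragm to actin; Podxl (podocalyxin), the sialomucin of the apical foot process surface; Ptpro, a receptor tyrosine phosphatase of the same surface; Synpo (synaptopodin), an actin-associated protein of the foot process; Plce1, a phospholipase C; and Wt1, the zinc finger transcription factor of the podocyte lineage. They were selected by gene name as 8 of the 54532 genes in the count matrix. Several are also made outside the podocyte. Podxl is made by endothelium, Wt1 by nephron progenitors, and Cd2ap by tubular and other epithelia.

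RNA was sequenced from whole kidneys of 12 mice aged 18 days on a C57BL/6 background (C57BL/6 J in the methods of the study), with 3 separate mice in each of 4 groups. Every mouse carried the hypomorphic Pkd1 RC allele. The other Pkd1 allele was floxed, and it was recombined, in the cells that express Cre, only in cystic mice, which carried KspCre (KspCre; Pkd1 RC/-). Noncystic mice had no Cre and are written Pkd1 RC/+. Each of these states was combined with either Pkd2 +/+ or Pkd2 Δ17/Δ17, a homozygous deletion of the miR-17 binding site in the Pkd2 3′-UTR. KspCre is driven by the Ksp-cadherin promoter, which acts in tubule and collecting duct epithelium and not in podocytes. Cre and the cystic state cannot be told apart in this design. The mice keep the numbers given in the labels: 19, 20 and 21 (noncystic, Pkd2 +/+), 22, 23 and 24 (noncystic, Pkd2 Δ17/Δ17), 25, 26 and 27 (cystic, Pkd2 +/+) and 28, 29 and 30 (cystic, Pkd2 Δ17/Δ17).

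Total counts ran from 18800307 to 24453033 reads per mouse. Levels are given as CPM, read counts scaled to a common library total and adjusted by the trimmed mean of M values (TMM). Differences are log2 fold changes from edgeR's quasi-likelihood test over 24642 genes, and a gene was called at a Benjamini-Hochberg adjusted p under 0.05. All 8 genes passed the filter on low counts. On GRCm38, Podxl lies at chr6:31519488-31563981 and Ptpro at chr6:137252319-137463233, Wt1 at chr2:105126529-105173616, Kirrel at chr3:87078593-87174747, Cd2ap at chr17:42792951-42876665 and Plce1 at chr19:38481109-38785030. No gene of the podocyte marker list was at 0 in any mouse, although some of these genes, such as Tcf21, are also made by other cells. Of the endothelial, mesangial, nephron progenitor, tubular, macrophage and fibroblast lists, the progenitor marker Six2 was at 0 in mouse 21 and had at most 8 reads in the other mice, and no other gene was at 0 in any mouse. The TMM factor differed between the states, with a range of 0.933 to 0.972 without cysts and of 1.04 to 1.08 with cysts.

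Per kilobase of exon, the noncystic Pkd2 +/+ kidney held by far the most Podxl, at 60.0 CPM per kb. Synpo (10.2 ± 0.878, SD, n = 3) and Cd2ap (9.38 ± 0.406) followed, and their spreads overlapped. Kirrel stood at 6.17 CPM per kb and Nphs1 at 5.89 ± 1.25, which also overlapped. Wt1 (4.59) and Ptpro (4.24) came next, and Plce1 was lowest at 0.946 CPM per kb. In the cystic Pkd2 +/+ kidney Podxl remained first at 26.6 CPM per kb, followed by Cd2ap at 15.7, Synpo at 14.7 and Kirrel at 9.12. Nphs1 (2.16), Wt1 (2.05) and Ptpro (1.64) had moved close to Plce1 (1.39), on the same scale.

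To determine whether podocyte gene expression differed between cystic and noncystic kidneys, the groups were first compared on the Pkd2 +/+ background. All 8 genes were called, against 31.1% of all genes tested, but they divided evenly: Nphs1, Podxl, Wt1 and Ptpro were lower in cystic kidneys and Synpo, Plce1, Kirrel and Cd2ap were higher. Lower calls made up 14.2% and higher calls 16.9% of all genes. The groups did not overlap for any of the 8, and neither did they for 41.7% of all genes. In RNA from whole kidney, fewer cells of a type, less RNA per cell and more RNA from other cells cannot be told apart.

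Nphs1, the core structural protein of the slit diaphragm, stood at 47.8, 31.5 and 37.7 CPM in noncystic mice 19, 20 and 21. In cystic mice 25, 26 and 27 it stood at 17.3, 9.84 and 15.8 CPM. Mouse 26 was lowest, and the highest cystic mouse lay well under the lowest noncystic one. The log2 fold change was -1.44 (SE 0.20, edgeR adjusted p = 2.62e-05). Nphs1 lies on mouse chromosome 7 from 30458315 to 30487223 (GRCm38, plus strand), and its exons overlap Nphs1os and Rps12-ps4 on the other strand. The first of these had no reads in any mouse and the second had 1 to 18, against 201 to 921 for Nphs1.

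Podxl gives the foot process its negatively charged coat. Its level was 352, 312 and 325 CPM in mice 19, 20 and 21 and 161, 124 and 154 CPM in mice 25, 26 and 27, with mouse 26 again lowest. The log2 fold change was -1.17 (SE 0.11, edgeR adjusted p = 5.54e-07). Ptpro, the phosphatase also known as GLEPP1, stood at 32.3, 27.7 and 25.5 CPM in the noncystic mice and 11.6, 8.42 and 13.0 CPM in the cystic mice. Its log2 fold change was -1.37 (SE 0.14, edgeR adjusted p = 1.28e-06). All cystic values of both genes were under all noncystic values.

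Wt1, which keeps podocytes differentiated, was at 33.4, 25.8 and 26.05 CPM in mice 19, 20 and 21 and at 12.5, 11.7 and 14.0 CPM in mice 25, 26 and 27. The cystic values lay within a narrow range, and the log2 fold change was -1.16 (SE 0.13, edgeR adjusted p = 4.33e-06). Of the 4 genes, Nphs1 fell by 63.2%, Ptpro fell by 61.3%, Podxl fell by 55.6% and Wt1 fell by 55.2%.

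The other 4 genes moved the opposite way. Cd2ap rose most, from 153, 141 and 152 CPM in mice 19, 20 and 21 to 239, 270.5 and 236 CPM in mice 25, 26 and 27 (log2 fold change 0.74, SE 0.08, edgeR adjusted p = 2.48e-06). Kirrel, the slit diaphragm partner of nephrin, was at 46.8, 46.9 and 44.4 CPM in the noncystic mice and 59.5, 79.1 and 65.7 CPM in the cystic mice (0.56, SE 0.09, edgeR adjusted p = 0.000134). Mouse 26, lowest of the cystic mice for the genes that fell, was highest for both Cd2ap and Kirrel.

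Plce1, which links receptor signals to phosphoinositide turnover, rose from 15.8, 15.1 and 14.5 CPM to 23.8, 21.98 and 20.8 CPM (log2 fold change 0.55, SE 0.11, edgeR adjusted p = 0.000748). Synpo, which binds actin and alpha-actinin, rose from 107, 91.8 and 93.96 CPM to 127, 144 and 148 CPM (0.52, SE 0.09, edgeR adjusted p = 0.000169). The increases of the 4 genes ran from 43.1% for Synpo to 67.0% for Cd2ap. With scaling to library totals in place of TMM the median over all genes moved from 0.02 to 0.18 on the log2 scale. Relative to that shift the 8 directions were the same, with Nphs1 at -1.28 and Podxl at -1.01, and with Synpo at 0.67 and Cd2ap at 0.90.

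**Figure D1:**
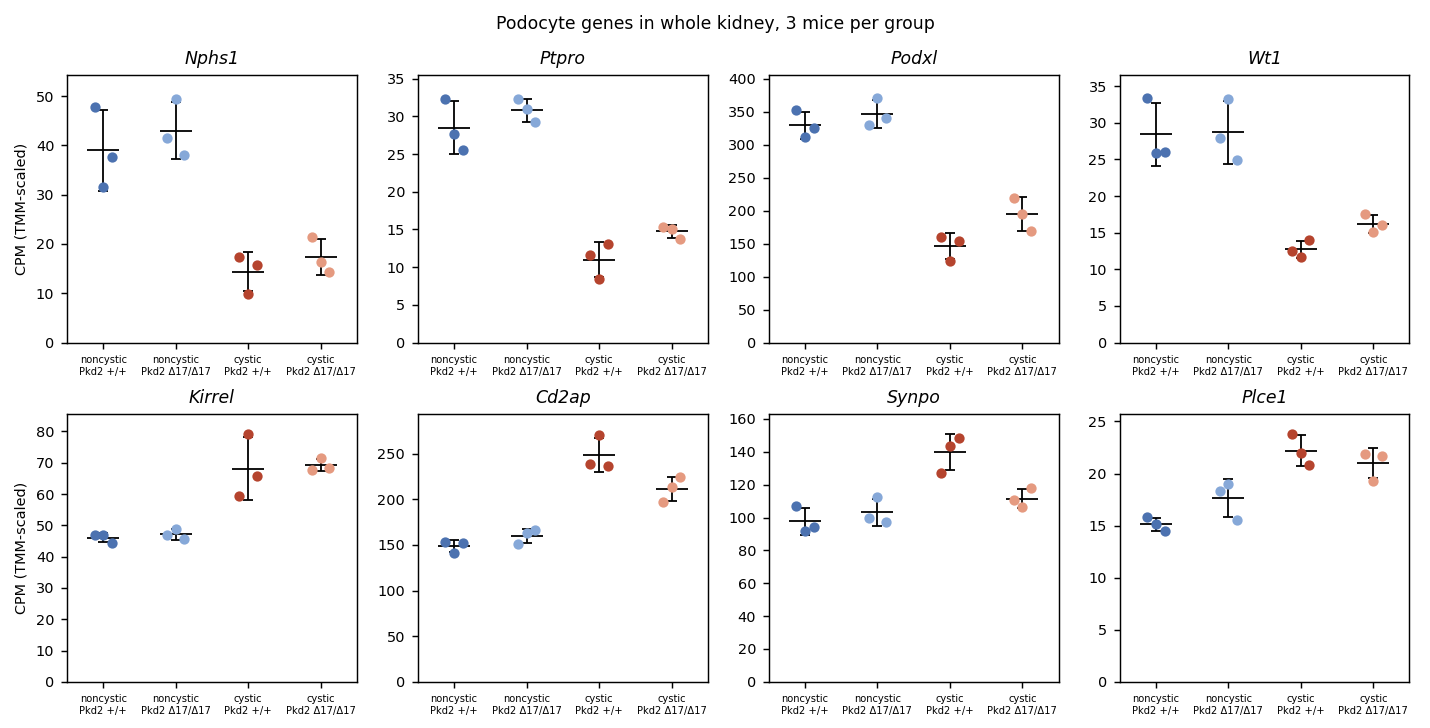
Level of each of the 8 genes in each mouse (CPM, TMM-scaled, linear axis from 0), by group; points are mice and the horizontal lines are group means with SD (n = 3). Nphs1, Podxl, Wt1 and Ptpro are lower in all 6 cystic mice than in any noncystic mouse, while Kirrel and Cd2ap are higher in all 6. Plce1 is also higher in all 6, by a small margin (lowest cystic mouse 19.3 CPM, highest noncystic mouse 19.04 CPM).

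The same comparison on the Pkd2 Δ17/Δ17 background used different mice in both groups. Here 6 of the 8 genes were called, against 23% of all genes: Nphs1, Podxl, Wt1 and Ptpro were lower (10.2% of all genes) and Kirrel and Cd2ap were higher (12.8%). The groups did not overlap for 7 of the 8, which held for 37.9% of all genes.

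Nphs1 stood at 41.6, 49.3 and 38.0 CPM in noncystic mice 22, 23 and 24 and at 21.4, 16.4 and 14.3 CPM in cystic mice 28, 29 and 30 (log2 fold change -1.31, SE 0.20, edgeR adjusted p = 0.000113). Podxl stood at 329.9, 371 and 339.7 CPM and at 219.7, 195 and 169 CPM in the same order (-0.83, SE 0.11, edgeR adjusted p = 3.13e-05). For both genes the highest cystic mouse was mouse 28. Ptpro was at 32.3, 30.9 and 29.2 CPM in the noncystic mice and 15.3, 15.1 and 13.8 CPM in the cystic mice, with little spread in either group (-1.06, SE 0.14, edgeR adjusted p = 2.92e-05). Wt1 was at 27.96, 33.3 and 24.9 CPM and at 17.5, 15.1 and 16.0 CPM (-0.82, SE 0.13, edgeR adjusted p = 0.000205).

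Kirrel rose from 46.9, 48.8 and 45.5 CPM to 67.8, 71.6 and 68.5 CPM (log2 fold change 0.56, SE 0.09, edgeR adjusted p = 0.000254). Cd2ap rose from 151, 163 and 166 CPM to 197, 213 and 224 CPM (0.40, SE 0.08, edgeR adjusted p = 0.00128). Neither group of values overlapped the other for these slit diaphragm genes. Plce1 was at 18.4, 19.04 and 15.6 CPM in the noncystic mice and 21.9, 19.3 and 21.7 CPM in the cystic mice, narrowly without overlap. It did not pass the test (0.25, 95% interval 0.02 to 0.48, edgeR adjusted p = 0.117). Synpo was at 99.7, 112 and 97.2 CPM and 111, 106 and 118 CPM, which overlapped (0.11, 95% interval -0.07 to 0.30, edgeR adjusted p = 0.401). Both passed with library totals, at 0.40 for Plce1 (adjusted p = 0.0123) and 0.27 for Synpo (adjusted p = 0.0409), a scaling under which the median gene also moved from -0.003 to 0.148.

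To examine whether the Pkd2 deletion altered these genes, Pkd2 Δ17/Δ17 and Pkd2 +/+ mice were compared within each state. Pkd2 itself was at 194 to 233 CPM in Pkd2 +/+ mice and 271 to 337 CPM in Pkd2 Δ17/Δ17 mice. In noncystic kidneys edgeR called none of the 8 genes, against 0.00406% of all genes. None had an unadjusted p under 0.05, none was called by DESeq2 or limma, and the groups overlapped for all 8, while 10.8% of all genes did not overlap. The log2 fold changes ran from 0.01 for Wt1 to 0.22 for Plce1. The 95% interval for Plce1 was -0.01 to 0.45 and that for Nphs1 was -0.26 to 0.54, which leaves room for changes of that size.

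In cystic kidneys edgeR also called none of the 8, against 2.23% of all genes (1.19% higher and 1.04% lower), but 5 had an unadjusted p under 0.05, as did 3532 of the 24642 genes tested. The groups did not overlap for 5 of the 8, which held for 19% of all genes. DESeq2 called 2 of them and limma none. These values use the same cystic mice as the comparisons above, so they are not independent of them. Podxl was higher with the deletion in each mouse, at 219.7, 195 and 169 CPM against 161, 124 and 154 CPM, and missed the threshold (log2 fold change 0.41, SE 0.11, edgeR adjusted p = 0.0584). Synpo was lower in each mouse, at 111, 106 and 118 CPM against 127, 144 and 148 CPM (-0.32, SE 0.09, edgeR adjusted p = 0.0592). DESeq2 called both genes, with adjusted p = 0.00674 for Podxl and 0.0141 for Synpo. Without mouse 25 edgeR called the same pair, with log2 fold changes of 0.49 and -0.39, and without mouse 30 it called Podxl alone, at 0.50.

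The 3 other genes without overlap were Ptpro (0.42, 95% interval 0.12 to 0.71, edgeR adjusted p = 0.15), Wt1 (0.35, 0.07 to 0.63, edgeR adjusted p = 0.223) and Cd2ap (-0.23, -0.40 to -0.06, edgeR adjusted p = 0.159). Nphs1 overlapped between the cystic groups, with a log2 fold change of 0.27 and a 95% interval of -0.15 to 0.70. Plce1 was at -0.08 (-0.31 to 0.14) and Kirrel at 0.03 (-0.16 to 0.22), and both overlapped.

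Whether the cystic difference itself changed with the Pkd2 genotype was tested as an interaction. None of the 8 genes was called by edgeR, DESeq2 or limma, against 0.0122% of all genes with edgeR (0.00812% higher and 0.00406% lower), while 3 had an unadjusted p under 0.05, as did 2053 of the 24642 genes tested. These were Synpo (-0.40 on the log2 scale, 95% interval -0.66 to -0.15, edgeR adjusted p = 0.345), Cd2ap (-0.34, -0.58 to -0.10, edgeR adjusted p = 0.405) and Podxl (0.34, 0.02 to 0.66, edgeR adjusted p = 0.573). That Synpo passed the test on one Pkd2 background and not on the other was therefore not shown to be a difference between backgrounds.

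**Figure D2:**
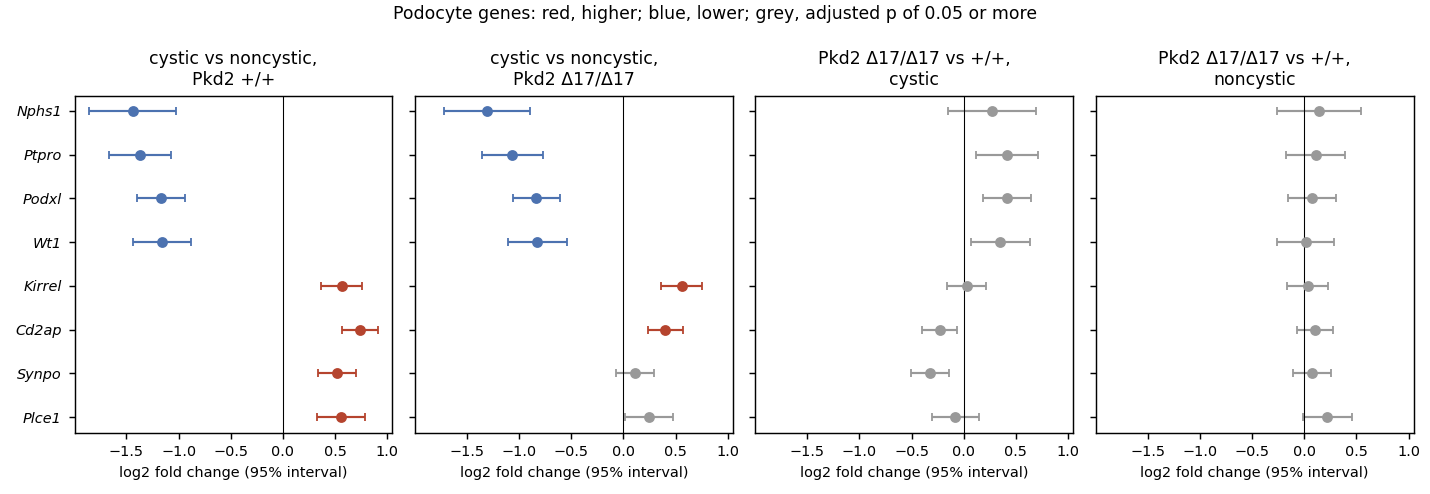
Log2 fold change of each gene with its 95% interval (edgeR quasi-likelihood) in the 4 pairwise comparisons; red points are higher and blue points lower at an adjusted p under 0.05, and grey points did not pass. In the cystic against noncystic comparison on Pkd2 +/+ the 8 genes split at 0, from -1.44 for Nphs1 to 0.74 for Cd2ap, and all points are grey in the comparisons of the Pkd2 deletion.

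The opposite movements left the summed level of the 8 genes less altered than its makeup. The sum was 692 to 789 CPM in noncystic Pkd2 +/+ mice and 652 to 669 CPM in cystic Pkd2 +/+ mice. On Pkd2 Δ17/Δ17 it was 748 to 828 CPM in noncystic mice and 645 to 672 CPM in cystic mice. Of all reads assigned to the 8 genes, Nphs1, Podxl, Wt1 and Ptpro together held 58.0% ± 0.895 (SD, n = 3) in noncystic Pkd2 +/+ kidneys and 27.8% ± 4.23 in cystic ones. With the deletion the same share was 57.8% ± 0.700 and 37.0% ± 3.86. Per mouse the cystic shares were 31.0, 23.02 and 29.5% (mice 25, 26 and 27) and 40.8, 37.0 and 33.1% (mice 28, 29 and 30), which did not overlap. These genes were grouped after their directions were seen, so the shares are a description only. Podxl alone went from 45.0% to 22.1% and Cd2ap from 20.3% to 37.5% of the reads on the Pkd2 +/+ background.

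**Figure D3:**
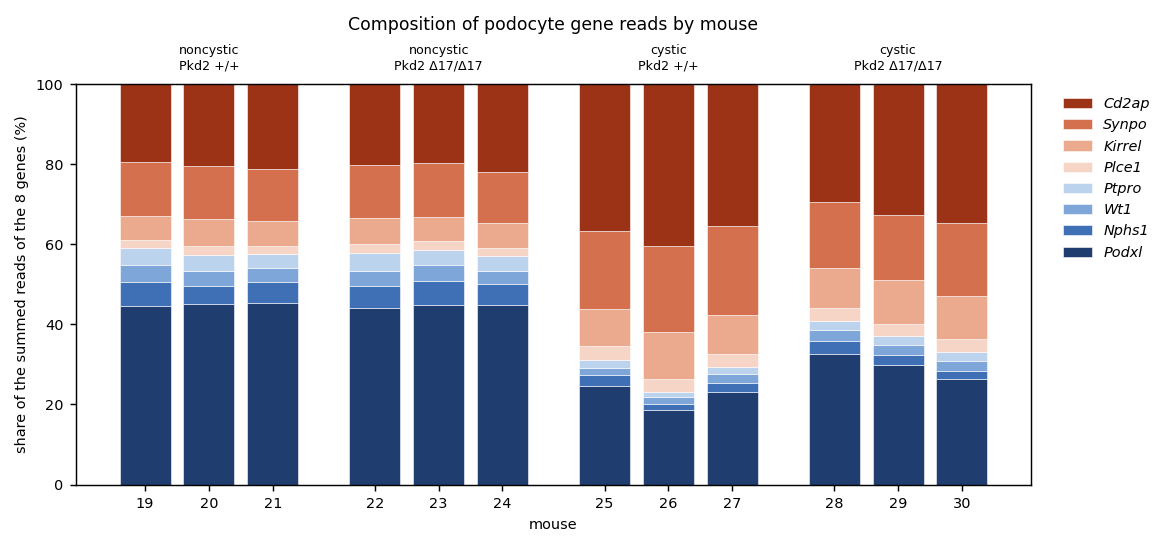
Share of the reads summed over the 8 genes that each gene held in each mouse (percent, stacked to the whole). Nphs1, Podxl, Wt1 and Ptpro together hold between 57.1 and 59.01% of them in each noncystic mouse, and between 23.02 and 40.8% in each cystic mouse.

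Each gene's profile over the 12 mice was also compared with those of 13690 other genes with an average log2 CPM of at least 1, by the root mean square difference of log2 levels centred on their means. Such profiles carry the group differences given above. The 5 genes nearest to Nphs1 included Klf15 (0.152), Kcnj15 (0.165), Pim3 (0.173) and Oxgr1 (0.178). Ptpro was the tenth nearest gene, Podxl ranked 71 and Wt1 ranked 156. Synpo, Plce1, Kirrel and Cd2ap ranked between 10333 and 11798. Centred on each group's own mean, which removes the group differences, Podxl ranked 28, Ptpro 91 and Wt1 192 for Nphs1, before Plce1 at 2195 and Synpo at 4080. For Wt1 the order was different, since Synpo ranked 46 and Plce1 ranked 305, nearer than Podxl at 380 and Ptpro at 740. Mice in 1 group share their genotype, so these distances are descriptive.

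A wider list of 55 genes with a role in podocytes, grouped by role, was followed in the same fits. Their mean levels in noncystic Pkd2 +/+ mice reached 1022 CPM for Npnt, beside 39.0 CPM for Nphs1. Which cells of the kidney made the reads of these 55 genes was not tested. In cystic against noncystic Pkd2 +/+ kidneys 22 of the 55 genes were higher, 22 were lower and 11 did not pass. Of all genes tested, 16.9% were higher and 14.2% lower. The median log2 fold change of the list was 0.01, beside 0.02 for all genes. On the Pkd2 Δ17/Δ17 background 18 were higher, 18 were lower and 19 did not pass, against 12.8% higher and 10.2% lower of all genes. Genes of a role moved in both directions. By role, the calls on Pkd2 Δ17/Δ17 were 5 higher and 4 lower for the slit diaphragm, 3 and 2 for actin, 6 and 3 for the basement membrane, 1 and 4 for signals and receptors and 2 and 3 for the remaining genes. The calls by role that follow are for Pkd2 +/+ unless the other background is named.

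Among 14 further genes of the slit diaphragm complex, 6 were higher and 4 lower. The 3 most highly expressed all rose on the Pkd2 +/+ background: Fat1, a giant protocadherin (log2 fold change 0.92), Prkci, an atypical protein kinase C of the polarity complex (0.67), and Tjp1, the tight junction protein ZO-1 (0.30). Those that fell included Kirrel2, Crb2 and Magi2, named after their values were seen. Kirrel2 was near the floor, with 24, 10 and 14 reads in mice 19, 20 and 21 and 6, 4 and 2 in mice 25, 26 and 27. Of 10 actin regulators 6 were higher, among them Myh9 (0.89), the heavy chain of nonmuscle myosin, and Actn4 (0.33), an actin crosslinker. Ezr, which links podocalyxin to actin, was at 0.09 (edgeR adjusted p = 0.498). The 2 actin genes that fell were Clic5 and Slc9a3r2, again named afterwards. Exons of Fat1, Crb2, Actn4 and Ezr overlap genes on the other strand.

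Of 11 basement membrane and adhesion genes 7 were higher and 3 lower. Npnt (nephronectin, 0.75), Agrn (agrin, 0.83) and Itgb1 (integrin beta 1, 0.25) rose. The 3 that fell, named after their values were seen, were Col4a3, Col4a4 and Col4a5, the chains of the mature glomerular collagen IV network, at -0.76, -0.46 and -0.47 on the log2 scale.

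Of 6 transcription factors 5 were lower and 1 higher on the Pkd2 +/+ background, and 2 were lower, 1 was higher and 3 did not pass on Pkd2 Δ17/Δ17. On Pkd2 +/+ Foxc1 fell by 0.68 on the log2 scale, whereas Tcf21, which is also made by interstitial fibroblasts, rose by 0.48. Of 8 signals and receptors 4 were lower and 1 higher. Vegfa, the growth factor that podocytes supply to glomerular endothelium, was at -0.45 and Sema3g, a secreted semaphorin, at -1.02, while Efnb1 was at 0.08 (edgeR adjusted p = 0.489). Of the last 6 genes 4 were lower and 1 higher. Cdkn1c, the cell cycle inhibitor p57, fell by 1.46, Wtip was at 0.03 (edgeR adjusted p = 0.827), and Pdpn (podoplanin), which lymphatic endothelium and fibroblasts also make, rose by 2.31.

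**Figure D4:**
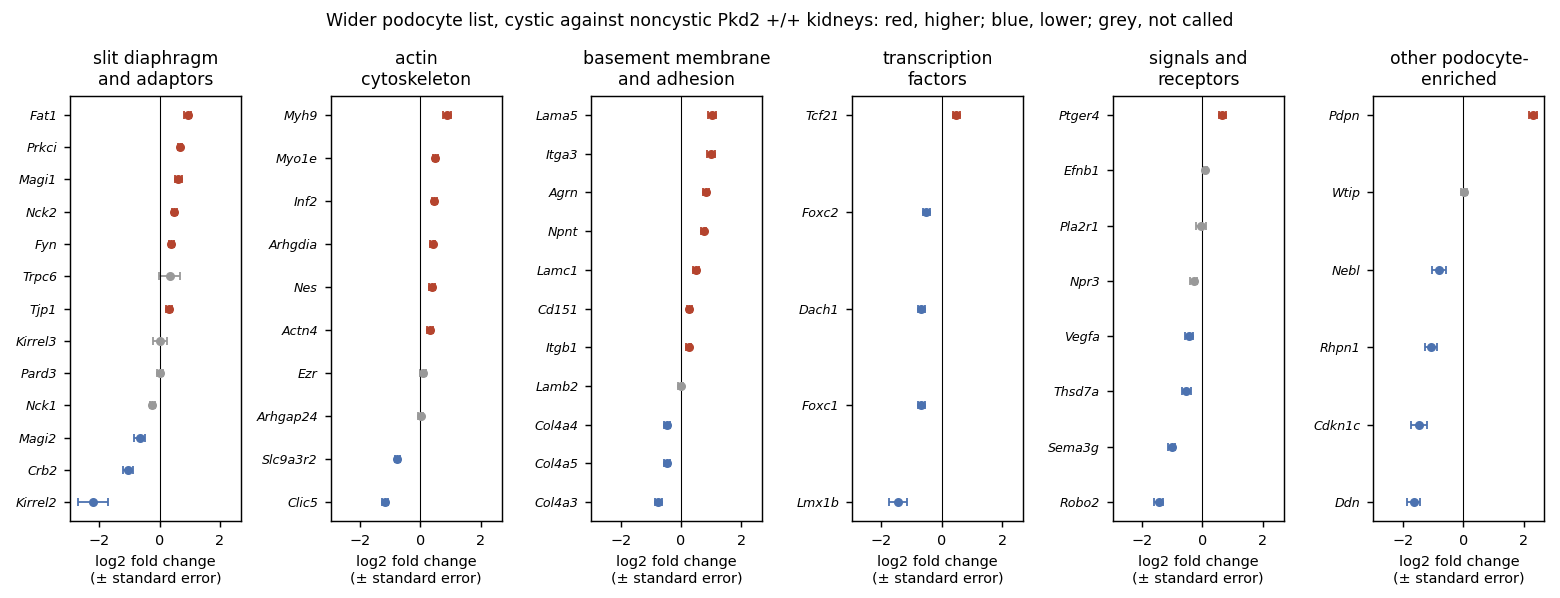
Log2 fold change of 53 of the 55 further podocyte genes, by role, for cystic against noncystic kidneys on Pkd2 +/+, with bars of 1 standard error; red points are higher and blue points lower at an adjusted p under 0.05, and grey points did not pass. Points lie on both sides of 0 in each role, from -2.22 for Kirrel2, a gene with few reads, to 2.31 for Pdpn.

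Between the cystic groups, 4 of the 55 genes passed the test, against 2.23% of all genes. Cdkn1c was at 23.5, 44.3 and 51.5 CPM in cystic Pkd2 +/+ mice and at 144.9, 85.0 and 77.2 CPM in cystic Pkd2 Δ17/Δ17 mice (log2 fold change 1.37, edgeR adjusted p = 0.0153). Robo2, a Slit receptor named after its values were seen, was higher by 0.75 (edgeR adjusted p = 0.0236) and Col4a3, named likewise, by 0.56 (edgeR adjusted p = 0.0194). Pdpn was lower by 0.63 on the log2 scale (edgeR adjusted p = 0.00902). This count rested on single mice: it was 7 without mouse 25 or mouse 30, 2 without mouse 27 or mouse 29, and 1 without mouse 28. It was 9 with DESeq2. With only those 2 groups in the fit it was 0. Exons of Cdkn1c and Col4a3 overlap genes on the other strand.

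Between the noncystic groups none of the 55 was called by edgeR, DESeq2 or limma, and 4 had an unadjusted p under 0.05, as did 1555 of the 24642 genes tested. In the interaction none was called either, where 17 of the 63 genes, members included, had an unadjusted p under 0.05 (2053 of the 24642 genes tested) and DESeq2 called 1.

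Markers of other cells of the kidney moved with the same comparison. The marker counts that follow stand against 16.9% higher and 14.2% lower of all genes on Pkd2 +/+. A list of 12 podocyte markers, several of them also in the list of 55, had 11 lower and 1 higher (Tcf21) on the Pkd2 +/+ background, with a median of -1.04. Of 10 endothelial markers 6 were lower and none higher, and their summed level was 1377 to 1529 CPM in noncystic and 891 to 1127 CPM in cystic Pkd2 +/+ mice, beside the decrease of Podxl. Of 6 nephron progenitor markers 4 were lower (summed level 51.0 to 52.9 and 36.2 to 38.9 CPM). Most of this sum came from Crym (mean 22.8 and 13.5 CPM) and Meox1. Meox1 stood at 19.2, 18.6 and 22.4 CPM in mice 19, 20 and 21 and 18.9, 21.2 and 20.1 CPM in mice 25, 26 and 27. Eya1 was near the floor, with 8 to 22 reads in the noncystic and 4 to 7 in the cystic mice, as was Six2. Whether progenitors had a part in the decrease of Wt1 was not tested. All 8 proximal tubule markers were lower, at 8214 to 10198 and 3149 to 4393 CPM.

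Of 8 distal and collecting duct markers 3 were lower and 1 was higher. Beside the genes that rose, all 8 macrophage markers were higher (145 to 151 CPM in noncystic and 341 to 489 CPM in cystic mice). Of 7 fibroblast markers 4 were higher and 2 lower (1878 to 2047 and 2894 to 4316 CPM). Of 9 mesangial and mural markers 3 were higher and 2 lower, and the sums of the groups overlapped (632 to 831 and 821 to 1141 CPM). The part of these other cells in the levels of the 8 genes was not tested.

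Since the Pkd2 deletion removes a miR-17 site, the 3′-UTRs of the 8 genes were searched for the same seed match. The mature miRNA, as RefSeq gives it, is shown with its seed (bases 2 to 8) in capitals, followed by the 2 matches found, which are in Ptpro and Kirrel, with the match in capitals.
mmu-miR-17-5p: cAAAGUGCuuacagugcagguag
Ptpro: gctgtaaaaatGCACTTTctttctccacc
Kirrel: caagtctctaaGCACTTTgaatctagcat
The match in Ptpro lies at chr6:137462980-137462986 (GRCm38, plus strand) and that in Kirrel at chr3:87082160-87082166 (minus strand). Both are 7-base matches, and 18.6% of 21018 genes hold a match of 7 or 8 bases. Ptpro fell and Kirrel rose in cystic kidneys, and neither was called between the Pkd2 genotypes. The deletion removes the site in Pkd2 and leaves the matches in Ptpro and Kirrel in place. The comparison of Pkd2 genotypes therefore cannot test whether miR-17 acts on these 2 genes. A match is a description of these letters and not evidence of binding.

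RefSeq promoter windows (GRCm38.p6, 250 bases before to 50 after the start) were at hand for 5 of the 8 genes: Nphs1, Ptpro, Plce1, Kirrel and Cd2ap. They were searched on both strands for GTGGGNG, a core of the WT1 motif, because Wt1 is one of the 8 genes. The motif was in Nphs1, Ptpro and Cd2ap, shown here in capitals, and in 31.6% of 32851 promoters.
Nphs1: gtacctgtgaGTGGGTGagagggaggt
Ptpro: gcaggccctgGTGGGAGgacccaagat
Cd2ap: tccaccccccCTCCCACccccgcctgc
These lie at chr7:30459833-30459839, chr6:137252264-137252270 and chr17:42876460-42876466, and the last is the motif on the opposite strand. Of the genes with a match, Nphs1 and Ptpro fell and Cd2ap rose in cystic kidneys. Whether WT1 acts on any of them was not tested. The LMX1B motif TAATTA (5.29% of promoters) was in none of the 5, and the TCF21 motif CAGCTG (16.3%) was in Cd2ap.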

How the data were processed

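Per the labels and the methods of the study, the authors trimmed reads with Trim Galore 0.6.3 and counted them per gene with STAR 2.5.3a on GRCm38 with Ensembl release 94 gene models, and the deposited values are raw read counts for 54532 genes in 12 mice. The strand setting of the counts is not given in the sources used here. The 8 genes, the wider list and the marker lists were chosen with earlier results of these data known. Genes with an average log2 CPM of at least -3 (24642 genes) were tested with edgeR 4.0.16 (quasi-likelihood, legacy settings, TMM, 1 mean per group over all 12 mice) in R 4.3.3, with Benjamini-Hochberg adjustment. SE is the absolute log2 fold change over the square root of F. The study's own approach, limma-trend on library totals, and DESeq2 1.42.0 were run as alternatives, beside other filters and scalings, an Xist covariate and leaving out each mouse; the newer edgeR settings were added after seeing the data. The method was tested on simulated counts. Replicates differed by more than counting noise (chi-square per degree of freedom 9.65 to 26.8 within groups), so no pair was merged. Genes named from the wider list are the 3 with the highest average log2 CPM per role, some of which are not reported here, and any other is said to be named afterwards. Gene positions and 3′-UTRs come from GENCODE M21 (GRCm38), in which 99.93% of gene IDs were found. Reads of 343 genes without a symbol (0.0225%) were kept.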

Additional observations from a re-analysis of the deposited data

How the results depend on the processing

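In cystic against noncystic Pkd2 +/+ kidneys all 128 recomputed values of the 8 genes kept their direction and their call. Over all comparisons, 650 of 680 values did, 14 passed the threshold where the reported value had not, and 16 changed sign, none of them a called value. The sign changes were Wt1 in the deletion comparison of noncystic mice (-0.042 with Xist as covariate; -0.11 to 0.15 on leaving out 1 mouse), Nphs1 in the same comparison (-0.00200 to 0.31 on leaving out 1 mouse), Kirrel between the cystic groups (-0.063 to 0.15), and in the interaction Kirrel (0.015 with Xist as covariate; -0.095 to 0.12) and Nphs1 (-0.071 to 0.30). Between the cystic groups the count of the 8 genes called was 0, and it was 2 with DESeq2, 3 with no filter on low counts, 1 with Xist as covariate and 0 to 2 on leaving out 1 mouse. For the wider list that count was 4, and it was 9 with DESeq2, 10 with no filter, 0 with only the compared groups and 1 to 7 on leaving out 1 mouse. For cystic against noncystic Pkd2 Δ17/Δ17 it was 36, and 26 to 35 on leaving out 1 mouse. Between the noncystic groups it was 0, and 1 with no filter. In the interaction it was 0, and it was 1 with DESeq2, 5 with no filter and 0 to 1 on leaving out 1 mouse. The cause of these changes was not tested. No paired analysis was run, because the mouse numbers run on across the groups and do not show which mice were littermates. The labels give no sex. With 3 mice a group, values that missed the threshold are bounded by their intervals.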

Other observations

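The genes whose profiles over the 12 mice lay closest to each of the 8 were also read. For Wt1, with levels centred on the mean over all mice, the nearest gene was Clic5, a chloride intracellular channel protein of the foot process, and Podxl came next (root mean square difference 0.123). This was not so for other genes that fell. Podxl lay nearest to Fggy (0.0695) and 4931406C07Rik (0.0715), before Clic5 (0.0852). Ptpro lay nearest to AI314278, Slc22a8, Acmsd, Kmo and Aldh6a1, none of them in the podocyte lists. These neighbours were read after the values of the 8 genes were known, and the mice of a group share a genotype, so they carry no test.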
